A study of Homo sapiens with 30 samples.

Results

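H3K27ac and H3K27me3 are competing modifications of the same residue, lysine 27 of histone H3, and the comparison here set the genome distribution of their peaks side by side in K562, an established human chronic myeloid leukaemia cell line with erythroid features. The members were the 10 lists of peaks called with SEACR after downsampling at 13 PCR cycles, out of 30 SEACR lists in the series. They comprised 8 H3K27ac lists and 2 H3K27me3 lists. The H3K27ac lists came from 4 antibodies, ab177178, ab4729 and Active Motif 39133 at a dilution of 1/100 and Diagenode C15410196 at 1/50, each with SDS extraction and with column extraction of DNA. The H3K27me3 lists came from the antibody CST9733 at 1/100 with the same extractions. All 10 libraries were made by CUT&Tag, in which an antibody on chromatin recruits a transposase that tags the DNA around it, from 500000 cells without trichostatin A, a deacetylase inhibitor used elsewhere in the series.

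A lysine cannot carry acetyl and methyl groups at once, so on 1 histone tail the marks exclude each other. H3K27ac is placed by the acetyltransferases p300 and CBP and is typical of active promoters and enhancers, where it forms compact regions. H3K27me3 is placed by Polycomb repressive complex 2 (PRC2) and is typical of silenced developmental genes, where it can spread over long domains. A profile of many cells can hold both marks in the same region, on separate alleles, cells or nucleosomes.

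The H3K27ac lists held 47976 peaks on chromosomes 1 to 22 and X, and the H3K27me3 lists held 146895. Each condition had 1 library, the sources used here do not state whether libraries came from separate cultures, and the lists are conditions rather than biological replicates. A p-value here measures only the spread among these lists, and with 8 lists against 2 the exact permutation test cannot go below 0.0444. The sources used here do not state the read number to which libraries were downsampled, and the depth behind a peak is unknown. No list from a control without a specific antibody was used here.

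H3K27me3 peaks were far more numerous and closer together than H3K27ac peaks. The H3K27ac lists held between 1.42 peaks per Mb (Diagenode, column) and 3.10 (ab177178, column), with a mean of 2.26 ± 0.66 (SD, n = 8 lists). The H3K27me3 lists held 26.1 peaks per Mb with column extraction and 29.3 with SDS, on average 12.2 times the H3K27ac mean. The peaks covered 0.128% to 0.435% of the binned genome in the H3K27ac lists and 2.06% and 2.39% in the H3K27me3 lists. No H3K27ac list reached either H3K27me3 list in density or in coverage.

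Among the 15 measures of a whole list, the spacing of neighbouring peaks had the largest ratio between the marks' means. The median gap from a peak to the next on its chromosome was 64059 bp in the Active Motif SDS list, the shortest of the 8 H3K27ac lists, and 155516 bp in the Diagenode column list, the longest. It was 2024 bp in the H3K27me3 SDS list and 2315 bp in the H3K27me3 column list, so that the H3K27ac mean of 98877 ± 37535 bp (SD, n = 8) was 45.6 times the H3K27me3 mean. Gaps under 10 kb made up 17.6% to 26.6% of gaps in the H3K27ac lists and 75.2% and 77.8% in the H3K27me3 lists. The median gap was 0.132 to 0.219 of the mean gap for H3K27ac and 0.0546 and 0.0555 for H3K27me3. By this ratio, which does not depend on how many peaks a list holds if all gaps scale alike, H3K27me3 gaps were the more unequal.

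With all called peaks, H3K27me3 peaks lay in long chains, and most H3K27ac peaks stood alone. When peaks less than 10 kb apart were linked, 58.8% to 70.1% of H3K27ac peaks had no linked neighbour, against 9.85% (SDS) and 11.4% (column) of H3K27me3 peaks. Chains of at least 10 peaks held 0% to 2.74% of H3K27ac peaks and 47.3% and 52.7% of H3K27me3 peaks. The ab4729 lists had no such chain with either extraction. The chain with the most peaks held 9 to 30 in the H3K27ac lists and 166 and 172 in the H3K27me3 lists, and the longest chains spanned 36.2 to 111 kb and 411 to 418 kb, respectively. Chain values were computed as a description and were not tested. The 10 kb limit was the same for all lists, so a list with more peaks per Mb can link more of them. No chain value at equal list size is given here, and the part of list size was not tested. Gap shares were also taken over the 3000 peaks of highest total signal in each list. Gaps under 10 kb were then 13.2% to 21.7% of gaps for H3K27ac and 39.1% and 39.6% for H3K27me3.

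**Figure D1:**
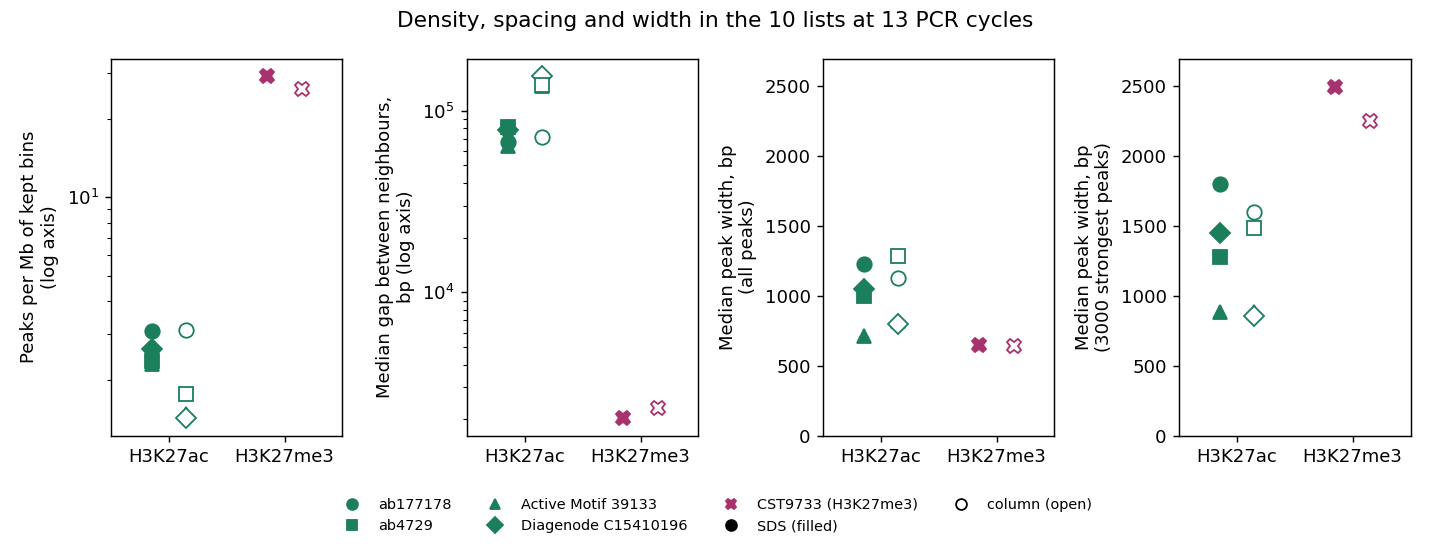
Peak density, median gap and median width (all peaks, and the 3000 strongest of each list) for 8 H3K27ac lists (green) and 2 H3K27me3 lists (purple), 1 point per list, with filled symbols for SDS and open symbols for column extraction; the first 2 axes are logarithmic. H3K27me3 lists lie above H3K27ac lists in density and below them in gap, and their median width is below all H3K27ac lists with all peaks (638 and 649 bp) and above them with the 3000 strongest (2250 and 2498 bp).

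Single H3K27me3 peaks were narrower than H3K27ac peaks when whole lists were compared. The median width ranged from 714 bp (Active Motif, SDS) to 1287 bp (ab4729, column) in the H3K27ac lists, with a mean of 1004 ± 210 bp (SD, n = 8), and was 638 bp (column) and 649 bp (SDS) in the H3K27me3 lists. The upper end of the distributions overlapped. The 90th percentile of width was 1192 to 2251 bp for H3K27ac and 1289 and 1353 bp for H3K27me3, and peaks of at least 5 kb made up 0.0824% to 0.393% and 0.178% to 0.228% of a list. The widest peak of a list was 7352 to 15412 bp for H3K27ac and 33878 bp (SDS) and 47890 bp (column) for H3K27me3.

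The order of the widths turned among the strongest peaks. Among the 3000 peaks of highest total signal in each list, the median width was 857 to 1801 bp in the H3K27ac lists and 2250 bp (column) and 2498 bp (SDS) in the H3K27me3 lists. Peaks of at least 5 kb were then 0.133% to 1.07% of an H3K27ac list and 4.10% and 5.90% of the H3K27me3 lists. Merging peaks within 1 kb left the H3K27ac median width the greater but turned the 90th percentile, which averaged 2166 bp for H3K27ac and 3153 bp for H3K27me3. The statement that H3K27me3 peaks were narrower therefore holds for all called peaks and not for the strongest. These peaks were chosen by total signal, a sum over the peak that grows with its width, and were 36.5% to 79.8% of an H3K27ac list and 3.86% and 4.33% of the H3K27me3 lists, so the parts of list size and of strength in the turn cannot be told apart.

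**Figure D2:**
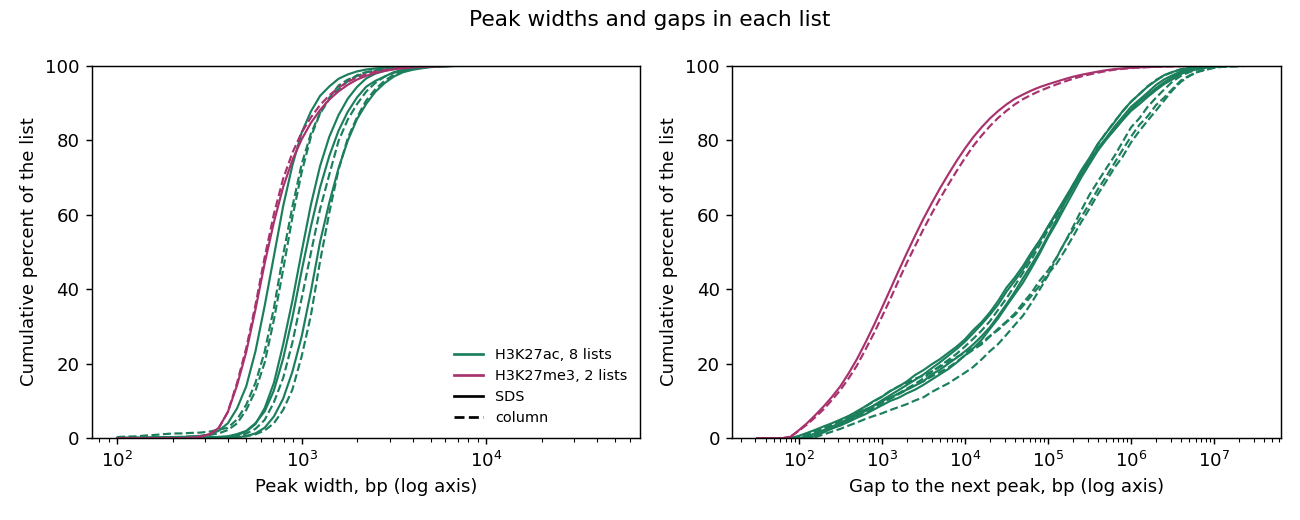
Cumulative percent of each list by peak width (left) and by gap to the next peak (right), on logarithmic bp axes, for 8 H3K27ac lists (green) and 2 H3K27me3 lists (purple), with solid lines for SDS and dashed lines for column extraction. The gap curves of the marks stand apart, with 75.2% and 77.8% of H3K27me3 gaps under 10 kb against at most 26.6% for H3K27ac, while the width curves cross.

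Both marks were clustered along the genome at the scale of 1 Mb. Of 3050 bins up to the last peak of each chromosome, the 2652 with a peak in at least 1 of the 30 lists were kept. H3K27ac lists left 27.1% to 49.7% of these bins empty and H3K27me3 lists left 21.2% and 22.4%. The fullest 10% of bins held 38.9% to 53.1% of H3K27ac peaks and 43.4% and 44.3% of H3K27me3 peaks, so the marks overlapped in concentration. The variance of peaks per bin in excess of Poisson, over the squared mean, also overlapped, with 1.24 to 2.98 for H3K27ac and 1.91 and 1.99 for H3K27me3. The correlation of the counts of neighbouring bins was 0.248 to 0.501 for H3K27ac and 0.495 and 0.510 for H3K27me3.

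Among the 3000 strongest peaks H3K27me3 was the more concentrated mark. The fullest 10% of bins held 46.7% to 60.9% of the 3000 strongest H3K27ac peaks and 76.8% and 80.1% of the 3000 strongest H3K27me3 peaks. Excess variance was then 1.55 to 3.97 for H3K27ac and 8.94 and 10.2 for H3K27me3. Empty bins turned as well, to 51.2% to 59.4% for H3K27ac and 72.6% and 74.9% for H3K27me3. The median gap kept its direction, at 142966 to 251758 bp for H3K27ac and 21679 and 22898 bp for H3K27me3. The 3000 peaks were 36.5% to 79.8% of an H3K27ac list and 3.86% and 4.33% of the H3K27me3 lists. The parts of list size and of strength therefore cannot be told apart here either. Dense bins on chromosomes 22 and 9, described below, were kept in this setting, and their part was not tested.

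Of 15 measures of whole lists, 7 had H3K27ac and H3K27me3 values that did not overlap: density, coverage, median width, median gap, the share of short gaps, the ratio of median to mean gap, and the share of empty bins. Each had p = 0.0444 in the exact two-sided permutation test, the smallest it can give, and 0.0952 after Benjamini-Hochberg adjustment over the 15, so none passed 0.05. The lists at 11 PCR cycles, called the same way from other libraries, also did not overlap in any of these 7 measures.

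The marks differed in which chromosomes held most peaks. Relative density was taken as peaks per Mb on a chromosome over the mean of the same list, which puts lists of unlike size on a common scale. It does not make the lists equal in size, and values at equal size, with the 3000 strongest peaks, are given below. The densest chromosomes for H3K27ac were 19 (2.52 ± 0.78), 22 (2.31 ± 0.38) and 1 (1.54 ± 0.09; SD, n = 8 lists each). For H3K27me3 they were 22 (mean of 2 lists 2.11), 16 (1.59) and 17 (1.49). The sparsest were 13 (0.314), X (0.337) and 18 (0.585) for H3K27ac, and X (0.309), 13 (0.472) and 4 (0.506) for H3K27me3.

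Chromosome 19, the human chromosome richest in genes for its length, showed the widest separation on the log2 scale with all called peaks. Its relative density was 1.51 (SDS) and 1.70 (column) with ab177178, 2.77 and 2.23 with ab4729, 2.94 and 2.2 with Diagenode, and 3.95 and 2.86 with Active Motif. In the H3K27me3 lists it was 1.09 (SDS) and 1.04 (column). All 8 H3K27ac lists thus lay above both H3K27me3 lists, and the antibodies differed among themselves, with the ab177178 lists lowest. The difference of H3K27me3 from H3K27ac was -1.19 on the log2 scale.

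Non-overlapping lists were found on 12 of 23 chromosomes (52.2%). H3K27me3 was relatively lower on chromosomes 1, 6 and 19. It was relatively higher on chromosomes 8, 10, 13, 15, 16, 17, 18, 20 and 21, by 0.17 (chromosome 10) to 0.67 (chromosome 20) on the log2 scale. On chromosome 20 the H3K27ac lists lay between 0.739 and 0.995 and the H3K27me3 lists at 1.33 and 1.42. On chromosome 15 they lay between 0.786 and 1.03 and at 1.31 and 1.41. Each of the 12 had p = 0.0444 in the exact permutation test and 0.0852 after adjustment over 23 chromosomes, so that 12 passed 0.05 before adjustment and 0 (0%) after it.

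The chromosome pattern was partly kept in other lists. At 11 cycles all 12 chromosomes had the same direction and 9 of them had lists that did not overlap. With the 3000 strongest peaks 9 of 12 had the same direction and 5 did not overlap, and chromosomes 10, 13 and 18 turned to a lower relative density of H3K27me3. In that setting 11 of 23 chromosomes did not overlap, 6 of them (4, 7, 12, 14, 22 and X) other than the 12. The widest difference was then on chromosome 21, at 1.62 on the log2 scale, with H3K27ac lists from 0.954 to 1.21 and H3K27me3 lists at 3.21 and 3.51. Chromosome 19 was at -1.60. Chromosome 22 moved from -0.11 to 1.15, with H3K27ac lists from 1.92 to 3.27 and H3K27me3 lists at 4.94 and 5.75. The X to autosome density ratio overlapped between the marks, at 0.282 to 0.394 for H3K27ac and 0.282 and 0.314 for H3K27me3. With the 3000 strongest peaks it was 0.180 to 0.278 for H3K27ac and 0.0895 (SDS) and 0.141 (column) for H3K27me3.

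**Figure D3:**
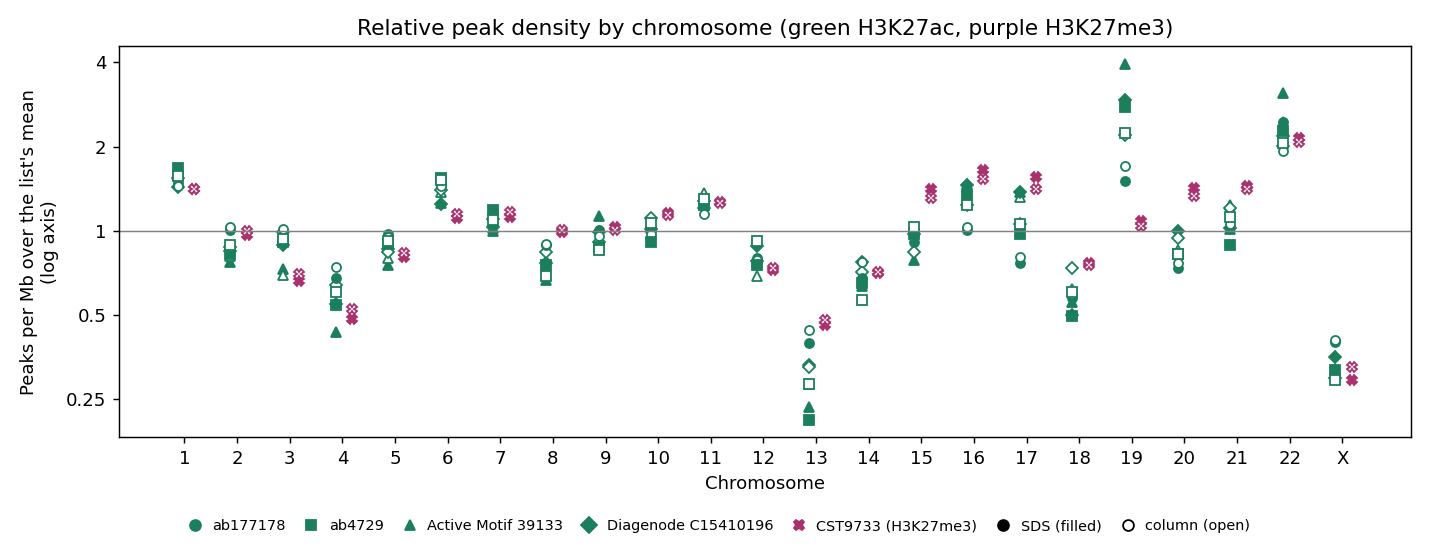
Relative peak density (peaks per Mb on the chromosome over the list's mean, logarithmic axis) on 23 chromosomes, 1 point per list, with H3K27ac in green, H3K27me3 in purple, filled symbols for SDS and open symbols for column extraction. Chromosome 19 has all H3K27ac lists (1.51 to 3.95) above the H3K27me3 lists (1.04 and 1.09), and chromosome 20 has all of them below.

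On chromosome 22, 5 neighbouring bins were very dense in both marks. These bins, from 19000001 to 24000000, and the bin from 133000001 to 134000000 on chromosome 9 were known as dense from earlier results of these data. They include the bins of BCR and ABL1, the partners of the fusion gene that K562 carries in extra copies. The chromosome 9 bin was rich in H3K27me3 only. It held 32 (SDS) and 17 (column) H3K27ac peaks with ab177178 and 1 to 8 in each of the other H3K27ac lists. The 6 bins, 0.226% of kept bins, held 1.74% to 3.26% of H3K27ac peaks and 1.34% and 1.40% of H3K27me3 peaks. Without them the relative density of chromosome 22 went from a mean of 2.31 to 0.755 ± 0.162 (SD, n = 8) for H3K27ac, with lists from 0.543 to 0.964, and from 2.11 to 1.41 for H3K27me3, with lists at 1.33 and 1.49. Its rank among the 23 chromosomes was then 18 for H3K27ac and 5 for H3K27me3. The lists of the marks overlapped on chromosome 22 with these bins and did not overlap without them, and the number of chromosomes without overlap was then 14. This setting was chosen after the data had been seen.

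At 1 Mb, bins were called rich in a mark when they held at least 2 times the list's mean number of peaks per kept bin in at least 6 of the 8 H3K27ac lists or in both H3K27me3 lists. This asked for 3 to 7 peaks per bin in the H3K27ac lists and for 53 and 59 in the H3K27me3 lists. There were 202 bins rich in H3K27ac only (7.62%), 335 rich in H3K27me3 only (12.6%), 86 rich in both (3.24%) and 2029 rich in neither (76.5%). Of the 288 H3K27ac-rich bins 29.9% were also H3K27me3-rich, against 15.9% of all kept bins. Of the 421 H3K27me3-rich bins 20.4% were also H3K27ac-rich, against 10.9% of all kept bins. The mean relative density of H3K27ac was above that of H3K27me3 in 48.5% of kept bins.

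Bins rich in H3K27ac only held a median of 31.4% of the peaks of an H3K27ac list (26.2% to 35.3%) and 5.83% and 6.27% of H3K27me3 peaks. Bins rich in H3K27me3 only held 45.7% and 46.9% of H3K27me3 peaks and 11.3% to 13.0% of H3K27ac peaks. The 86 bins rich in both held 12.4% to 15.9% of H3K27ac peaks and 11.6% and 11.8% of H3K27me3 peaks. The remaining 2029 bins still held 35.7% to 49.0% of H3K27ac peaks and 35.6% and 36.3% of H3K27me3 peaks.

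**Figure D4:**
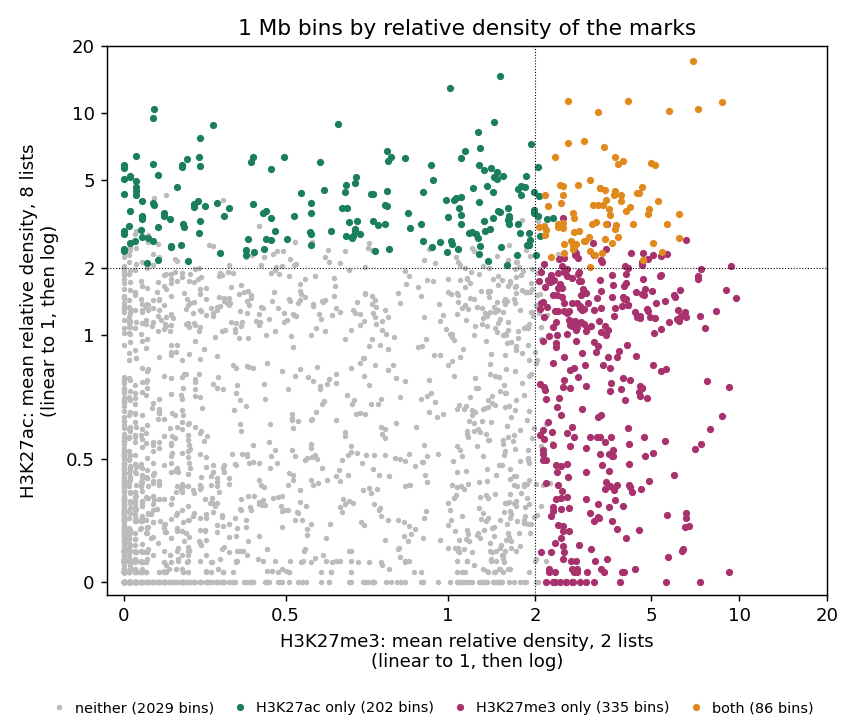
Mean relative density of H3K27me3 (2 lists, horizontal) and H3K27ac (8 lists, vertical) in 2652 bins of 1 Mb, on axes that are linear to 1 and logarithmic above; dotted lines mark 2 times the list mean. The classes were set by thresholds on these relative densities, so the separation of the 202 bins rich in H3K27ac only from the 335 rich in H3K27me3 only follows from the rule. A further 86 bins are rich in both.

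The bin counts of the marks were weakly related. Across the 2652 bins, Spearman's rho was 0.299 to 0.441 over 16 pairs of an H3K27ac and an H3K27me3 list, 0.684 to 0.879 over 28 pairs of H3K27ac lists, and 0.975 for the pair of H3K27me3 lists. Without the 6 dense bins the cross-mark range was 0.294 to 0.438. These values describe neighbouring bins that share libraries and are not tests.

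The rich bins had unlike positions along chromosomes. Bins in the first 5 Mb of a chromosome or among the last 5 up to its last kept bin were 7.69% of kept bins, 14.9% of those rich in H3K27ac only, 21.2% of those rich in H3K27me3 only, 15.1% of those rich in both and 4.44% of those rich in neither. Of the 158 runs of bins rich in H3K27ac only, 82.9% were a single bin and the longest had 7 bins. Of the 223 runs rich in H3K27me3 only, a larger class of 335 bins against 202, 65.5% were a single bin and the longest had 4. The longest run rich in neither mark spanned 36 bins on chromosome 2, from 176000001 to 212000000.

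By chromosome, bins rich in H3K27ac only made up 36.2% of the 58 kept bins of chromosome 19 and 14.6% of the 219 of chromosome 1. Bins rich in H3K27me3 only made up 23.7% of the 38 kept bins of chromosome 21 and 22.2% of the 36 of chromosome 22. Chromosome 6 had 16 bins rich in both (10.0%) and chromosome 1 had 18 (8.22%). On X, 130 of 132 kept bins were rich in neither, 2 were rich in H3K27ac only and 0 were rich in H3K27me3.

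Bins without a peak were counted over all lists of a mark. No H3K27ac peak was called in any of the 8 lists in 453 bins (17.1%), and no H3K27me3 peak in either list in 472 (17.8%), of which 224 lacked both. Among neighbouring kept bins, the longest runs without H3K27ac spanned 5 bins each. Bins with no peak in any of the 30 lists also lack H3K27ac but were not kept and end a run. The runs lay on chromosome 4 from 19000001 to 24000000 and on X from 25000001 to 30000000. The first held 0 (SDS) and 1 (column) H3K27me3 peaks and the second 7 and 7. On chromosome 1, from 48000001 to 51000000, 3 bins without H3K27ac held 82 (SDS) and 65 (column) H3K27me3 peaks in all. The list means were 29.3 and 26.1 H3K27me3 peaks per kept bin. Of the 453 bins without H3K27ac, 224 were empty of both marks and 14 were rich in H3K27me3 only, a class that held 12.6% of all kept bins.

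The bin of highest mean relative density among those rich in H3K27ac only was chromosome 4, 49000001 to 50000000, at 14.7 ± 6.45 (SD, n = 8), with 18 to 40 H3K27ac peaks per list and 35 and 48 H3K27me3 peaks. The next was chromosome 10, 42000001 to 43000000, at 12.9 ± 8.22. It held 15 to 18 peaks with the Abcam antibodies and 28 to 40 with the Diagenode and Active Motif antibodies. Both bins border the centromere of their chromosome, where repeats make read placement difficult, and the part of repeats in these counts was not tested.

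The other 3 bins named for H3K27ac were chromosome 11, 1 to 1000000 (10.4 ± 3.79), chromosome 6, 28000001 to 29000000 (9.47 ± 1.98) and chromosome 19, 1 to 1000000 (9.14 ± 3.11). The chromosome 11 bin held 16 to 32 H3K27ac peaks and 1 (SDS) and 4 (column) H3K27me3 peaks. The chromosome 6 bin held 14 to 24 H3K27ac peaks and 2 and 3 H3K27me3 peaks. The chromosome 19 bin held 14 to 30 H3K27ac peaks and 42 and 38 H3K27me3 peaks. H3K27me3 was thus nearly absent from the chromosome 11 and 6 bins and above its list mean in the chromosome 19 bin.

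Among bins rich in H3K27me3 only, the highest was chromosome 7, 155000001 to 156000000, with 281 (SDS) and 260 (column) H3K27me3 peaks and 1 to 4 H3K27ac peaks. This is the bin of SHH, a secreted morphogen of the embryo. Chromosome 5, 1000001 to 2000000, held 266 and 253 H3K27me3 peaks and 2 to 9 H3K27ac peaks. Chromosome 2, 121000001 to 122000000, held 266 and 243 H3K27me3 peaks and a single H3K27ac peak, in the ab177178 SDS list. The remaining 2, chromosome 17 from 77000001 to 78000000 and chromosome 1 from 204000001 to 205000000, held 225 to 286 H3K27me3 peaks per list and at most 6 H3K27ac peaks.

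Among bins rich in both marks, 4 of the 5 highest lay in the dense stretch of chromosome 22. The bin from 22000001 to 23000000 held 12 to 41 H3K27ac peaks and 253 (SDS) and 229 (column) H3K27me3 peaks, and the bin from 21000001 to 22000000 held 19 to 54 and 198 and 186. The fifth was chromosome 6, 33000001 to 34000000, with 8 to 22 H3K27ac peaks and 158 and 128 H3K27me3 peaks. Outside the dense stretch, in a set added after the values were seen, chromosome 6 from 7000001 to 8000000 held 7 to 19 H3K27ac peaks and 146 and 130 H3K27me3 peaks. In these bins H3K27ac was 5.85 ± 1.52 and 5.96 ± 0.58 times the list mean (SD, n = 8).

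Most H3K27ac peaks in bins rich in both marks did not overlap an H3K27me3 peak. The median distance from an H3K27ac peak to the nearest H3K27me3 peak of the same extraction was 40.5 to 58.8 kb over the 8 lists in bins rich in both, 36.9 to 45.3 kb in bins rich in H3K27me3 only and 90.9 to 112 kb in bins rich in H3K27ac only. Peaks that overlapped an H3K27me3 peak by at least 1 bp were 2.70% to 10.3% of H3K27ac peaks in bins rich in both and 2.74% to 6.41% of all H3K27ac peaks. The classes were set by the number of H3K27me3 peaks in a bin, so shorter distances in H3K27me3-rich bins follow from the rule. No distance or overlap expected from peak density is given here, and whether the marks avoid or attract each other within a bin was not tested.

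Known loci were then looked up at the resolution of 1 Mb. No hg19 annotation was used here, so the bin of each of 68 loci was set from general knowledge of hg19 positions. The chromosome of all 52 loci that are single genes in the RefSeq table matched, but positions within chromosomes were not checked against a file. A bin holds many genes, and no peak was assigned to a gene. A gene near a bin's edge, such as KLF1 or CD8A, and a cluster that may cross one, such as HOXD, may lie partly in the next bin.

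The 15 erythroid loci gave 7 bins rich in H3K27ac only, 3 rich in both, 1 rich in H3K27me3 only and 4 rich in neither. The shares of all kept bins were 7.62%, 3.24%, 12.6% and 76.5%, in this order. The bin of TFRC, the transferrin receptor through which red cell precursors take up iron, held 23, 15, 14 and 16 H3K27ac peaks with SDS and 9, 13, 16 and 11 with column extraction (Active Motif, Diagenode, ab177178 and ab4729), 6.73 ± 1.92 times the list mean (SD, n = 8). It held 30 (SDS) and 33 (column) H3K27me3 peaks. The bin of GATA2, a transcription factor of blood progenitors, held 4 to 12 H3K27ac peaks and 6 and 6 H3K27me3 peaks. The bins of TAL1, LMO2 and GATA1, factors of erythroid transcription complexes, were at 3.38 ± 0.53, 2.67 ± 0.97 and 3.74 ± 1.71 times the H3K27ac list mean, and H3K27me3 peaks there ranged from 43 to 56 per list.

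Other erythroid loci, among them globin and red cell membrane genes, were less uniform. The alpha-globin bin held 1 to 20 H3K27ac peaks, the lowest with Diagenode column, and was rich in H3K27ac only. It held 68 (SDS) and 47 (column) H3K27me3 peaks and passed the threshold for H3K27me3 in the SDS list but not in the column list. The beta-globin bin held 2 to 12 H3K27ac peaks, 2.31 ± 1.07 times the list mean. It passed the H3K27ac threshold in 5 of the 8 lists, with 6 required, and was rich in neither. The bin of SLC4A1, the anion exchanger of the red cell membrane, held 0 to 5 H3K27ac peaks and 42 (SDS) and 36 (column) H3K27me3 peaks, and was rich in neither. The KLF1 bin, also rich in neither, held 2 to 11 H3K27ac peaks, 2.86 ± 1.49 times the list mean. It likewise passed the H3K27ac threshold in 5 of the 8 lists, and held 2 (SDS) and 0 (column) H3K27me3 peaks. The ALAS2 bin, rich in neither, held at most 1 H3K27ac peak, in 2 of 8 lists, and 5 and 2 H3K27me3 peaks. Rich in both were the bins of ZFPM1, NFE2 and BCL2L1, with 3 to 16 H3K27ac and 57 to 97 H3K27me3 peaks per list. The bin of GFI1B, a repressor in erythroid and megakaryocytic cells, held 0 to 5 H3K27ac peaks and 179 and 184 H3K27me3 peaks, the highest H3K27me3 count among the erythroid loci.

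The developmental regulators were genes of tissues other than blood. Of their 22 bins, 0 were rich in H3K27ac only or in both, 6 in H3K27me3 only and 16 in neither, and the H3K27me3-only share of all kept bins was 12.6%. The median H3K27me3 relative density of these bins was 1.19, below the 1.61 of the 15 erythroid bins. The bin of SOX1, a neural transcription factor, held 0 H3K27ac peaks in all 8 lists and 85 (SDS) and 65 (column) H3K27me3 peaks. The bin of SIX2, a factor of kidney progenitors, held 94 and 91 H3K27me3 peaks and 1 H3K27ac peak, in the ab4729 SDS list. The bin of SOX2, a pluripotency and neural factor, held 0 H3K27ac peaks and 2 (SDS) and 6 (column) H3K27me3 peaks, so the bin of a developmental regulator was not always rich in H3K27me3.

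The 4 HOX clusters, which pattern the body axis, fell in 4 classes. The HOXA bin held 0 to 2 H3K27ac peaks and 106 (SDS) and 102 (column) H3K27me3 peaks. The HOXB bin held 4 to 11 H3K27ac peaks and 38 and 36 H3K27me3 peaks. The HOXC bin, which also holds the erythroid factor NFE2, was rich in both, with 3 to 14 H3K27ac peaks and 97 and 94 H3K27me3 peaks. The HOXD bin was rich in neither, with 3 to 5 H3K27ac peaks and 56 and 51 H3K27me3 peaks, below the 59 and 53 required. The HOXA and HOXB bins thus lay at opposite ends.

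Of 8 loci of other lineages, 4 bins were rich in H3K27me3 only, 1 in both, 1 in H3K27ac only and 2 in neither. The shares of all kept bins were 12.6%, 3.24%, 7.62% and 76.5%, in this order. The bin of KRT5, a keratin of basal epithelium, held at least 110 H3K27me3 peaks in each list and 1 H3K27ac peak, in the Active Motif SDS list. The bin of ALB, the serum albumin gene of liver, held 0 to 4 H3K27ac peaks and 1 and 0 H3K27me3 peaks. The bin of MYH7, a cardiac myosin gene, was rich in H3K27ac only at 4.18 ± 1.41 times the list mean, so the class of a bin does not give the state of 1 gene in it. The bins of ACTB and GAPDH, housekeeping genes, were both rich in H3K27ac only, against 7.62% of all kept bins. The GAPDH bin also held 63 (SDS) and 49 (column) H3K27me3 peaks, past the threshold in the SDS list only.

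The 6 bins of KRAB zinc finger gene clusters on chromosome 19, whose genes encode DNA-binding repressors, were all rich in neither mark, as were 76.5% of all kept bins and 50.0% of those of chromosome 19. They held 0 to 8 H3K27ac peaks and 0 to 2 H3K27me3 peaks, on the chromosome of highest H3K27ac density. The bin from 53000001 to 54000000 was at 2.10 ± 0.92 times the H3K27ac list mean and passed the threshold in 5 of the 8 lists. The other bins of this set passed it in 0 lists. The 4 bins of olfactory receptor, clustered protocadherin and keratin-associated protein genes were likewise all rich in neither, with 0 to 11 H3K27ac peaks and 0 to 13 H3K27me3 peaks. Of these, the protocadherin bin was at 2.03 ± 1.07 times the H3K27ac list mean and passed the threshold in 4 of the 8 lists. The keratin-associated protein bin passed it in 1 list and the olfactory receptor bins in 0. The bins of 3 of 4 very long genes of nerve or muscle, CNTNAP2, LRP1B and DMD, held no peak in any of the 30 lists, as did the bin of CDKN2A, a tumour suppressor gene known to be deleted in K562. These 4 bins were therefore not among the kept bins, like 398 of all 3050 bins (13.0%). A single bin was looked up for each gene, so any part of a very long gene outside that bin was not examined.

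**Figure D5:**
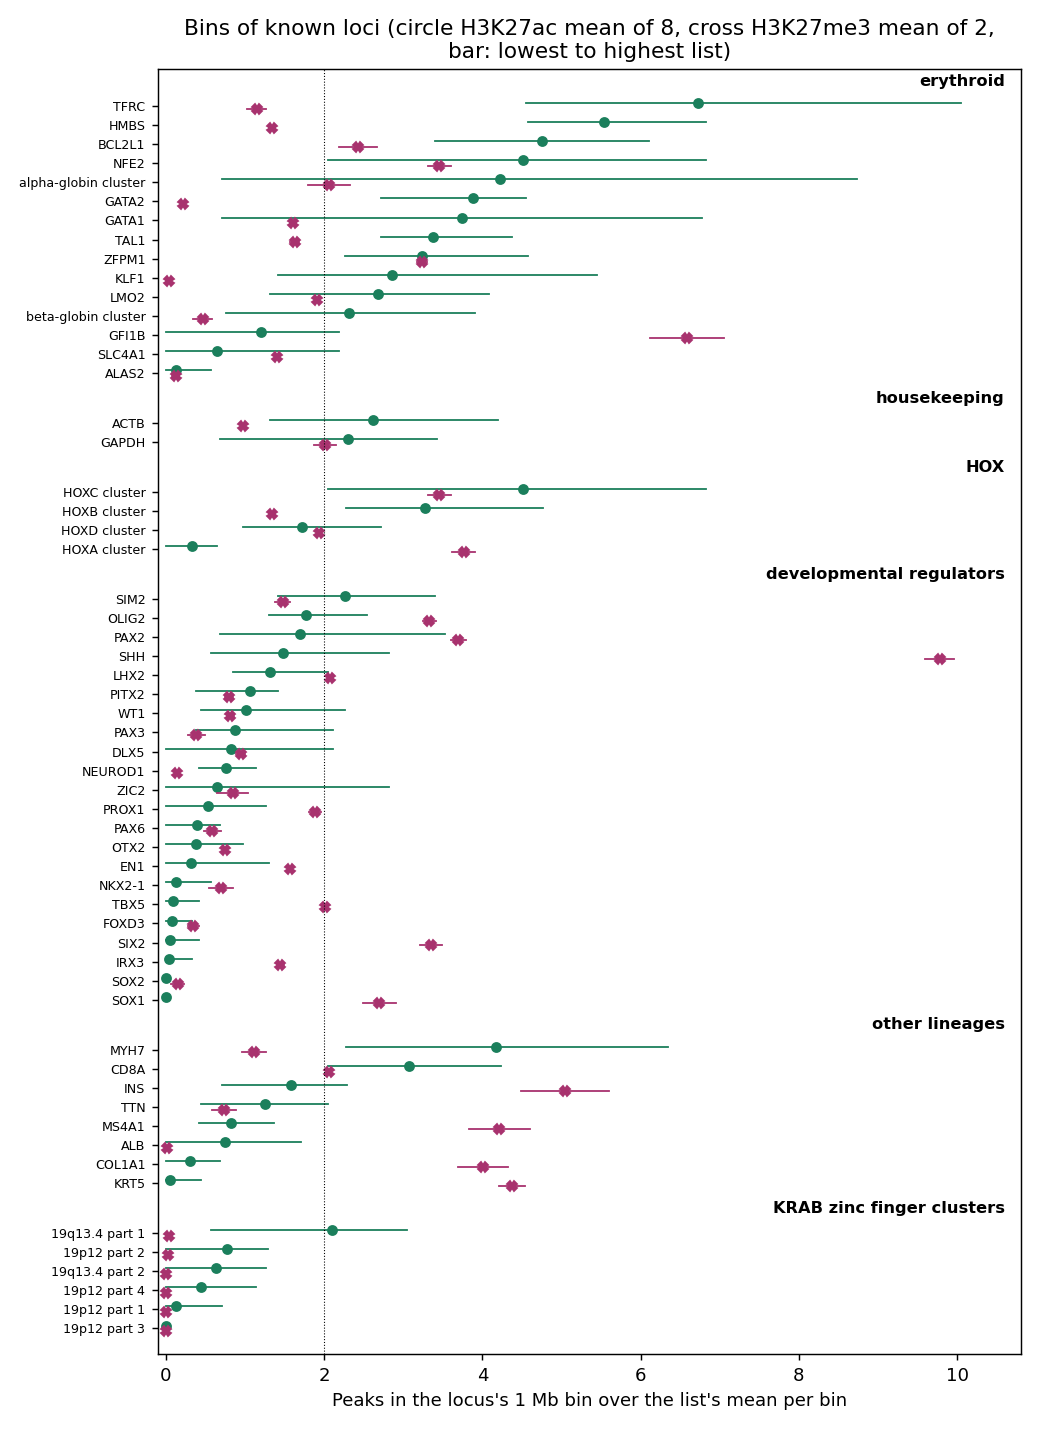
Relative density (peaks in the 1 Mb bin of a locus over the list's mean per kept bin) for 6 sets of loci, with the mean of 8 H3K27ac lists as a green circle, the mean of 2 H3K27me3 lists as a purple cross, bars from the lowest to the highest list, and a dotted line at 2 times the mean. Erythroid bins lie mostly to the right in H3K27ac (TFRC 6.73), and bins of developmental regulators have 0 of 22 rich in H3K27ac and 6 rich in H3K27me3 only (SHH 9.78). The median H3K27me3 value is nonetheless higher over erythroid bins (1.61) than over bins of developmental regulators (1.19).

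The classes recurred in the lists at 11 cycles. Of the bins rich in H3K27ac only at 13 cycles, 161 of 202 (79.7%) had the same class at 11 cycles, where 201 bins had it (80.1%). The same held for 279 of 335 bins rich in H3K27me3 only (83.3%; 310 bins had the class at 11 cycles), for 67 of 86 rich in both (77.9%, and 76.1% of 88) and for 1976 of 2029 rich in neither (97.4%, and 96.2% of 2053).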

How the data were processed

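K562 CUT&Tag libraries were profiled for H3K27ac or H3K27me3. The submitters' processing notes name the genome build hg19, the aligner Bowtie2 2.2.9, the peak callers SEACR and MACS2, and the tools Picard 2.6.0, bedtools 2.25.0, SAMtools 1.3.1, Trim Galore 0.6.6 and bcl2fastq, but not which step used which. Per the labels, duplicates were removed and the lists used here were downsampled before calling. The sources used here state neither SEACR's mode nor its threshold. Peaks were called per library. For every peak the deposited lists carry 2 values that the authors' caller wrote, total signal and maximum signal, and total signal ranked peaks within a list only. MACS2 lists were not used here.

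Only chromosomes 1 to 22 and X were used, which left out 1.02% to 5.67% of an H3K27ac list and 0.449% to 0.513% of an H3K27me3 list. A peak belonged to the 1 Mb bin of its midpoint. Coordinates are hg19, counted from 1. Marks were compared over all 45 assignments of 2 of the 10 lists (exact two-sided permutation test, the smaller tail doubled), with Benjamini-Hochberg adjustment over 15 measures and over 23 chromosomes. Bin classes and loci were not tested, and 2 loci of the original lists are not reported here. The bins named were the 5 of highest mean relative density rich in H3K27ac only, the 5 rich in H3K27me3 only, the 5 rich in both by the lower of the marks' means, and the longest runs without H3K27ac; named chromosomes were the 3 highest and 3 lowest of each mark. Lists, loci, measures and settings were chosen with earlier results of these data known. Alternatives covered the permutation unit, merging within 1 kb, 3000 strongest peaks, peaks of at least 500 bp, the bins kept and their size (500 kb, 2 Mb), the dense bins, lists at 11 cycles, covered bases, the richness rule, and leaving out each antibody or H3K27me3 list. Lists were handled with pandas 2.3.3 and numpy 2.4.6 in Python 3.11.15, figures were drawn with matplotlib 3.10.9, and the permutation code was checked against scipy 1.17.1. The scripts were tested on simulated data. Sequences and gene annotation on hg19 were not used here.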

Additional observations from a re-analysis of the deposited data

Results flagged for a closer look

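The Active Motif SDS list had a relative density of 3.11 on chromosome 22, set apart from the other 7 H3K27ac lists, which reached at most 2.46. The gap between them was large against the range of the group in Dixon's test. The test was run on 38 sets of 8 H3K27ac lists (15 measures and 23 chromosomes), and chance marks about 1 set in 20. Without that list the mean was 2.19, and without the 5 dense bins of chromosome 22 and 1 of chromosome 9 the same list was at 0.901, within the range of the H3K27ac lists (0.543 to 0.964).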

How the results depend on the processing

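No measure passed an adjusted p of 0.05 under the alternatives run for it, and no chromosome under those run for chromosomes (3000 strongest peaks, dense bins, 11 cycles, covered bases, lists left out). With the mark label permuted within extraction (smallest p 0.08), the antibody as the unit (0.4), an antibody left out (0.0714) or an H3K27me3 list left out (0.222) none could. Of 427 values under 20 alternatives, 394 kept their direction and size class, 25 turned and 8 counts moved by over 1.5 times. Part of the 394 could not change. Another permutation unit altered p-values only. Other bin sizes, or all bins to the last peak, left the differences in width, gap and signal share as they were. The cause of the changes was not tested. The labels pair no replicates, so no replicate block was fitted; lists of the same extraction were matched only in the permutation within extraction.

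Values that turned are differences of means, H3K27me3 minus H3K27ac. With the 3000 strongest peaks, which fixes list size and picks by signal, they were 1094 bp in median width, 1878 bp in the 90th percentile of width, 4.57 percentage points in peaks of at least 5 kb, 19.1 in empty bins, 26.3 in peaks in the fullest 10% of bins, 7.03 in excess variance, -2.0 percentage points in signal in the strongest 10% of peaks, 0.379 in the SD of log2 chromosome density, and -0.36, -0.37 and -0.30 in log2 density of chromosomes 10, 13 and 18. With peaks merged within 1 kb they were 986 bp in the 90th percentile of width, 3.48 points in peaks of at least 5 kb and 0.0298 in the X to autosome ratio. Excess variance, close to 0 at -0.081, turned to 0.0314 with peaks of at least 500 bp, 0.00336 in 2 Mb bins, 0.084 without the dense bins and 0.183 without Active Motif (from -0.302 over the lists left out). The share of peaks of at least 5 kb turned to 0.0504 with peaks of at least 500 bp, 0.00707 without Diagenode, 0.0329 without ab177178 and 0.0209 without the H3K27me3 column list (from -0.0423 over the lists left out). The share of signal in the strongest peaks turned to -0.516 without the dense bins, -0.861 without ab177178 and -1.50 without ab4729 (up to 3.54 over the lists left out).

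Bins rich in H3K27ac only were 3.96% at 3 times the mean and 4.00% with all 8 lists required. Bins rich in H3K27me3 only were 7.24% with the 3000 strongest peaks and 7.09% at 3 times. Bins rich in both were 1.96% in 500 kb bins, 6.18% at 1.5 times, 1.17% at 3 times and 2.00% with all 8 lists.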
